A study of Mus musculus with 12 samples.

Results

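Cytochrome P450 enzymes are haem-containing monooxygenases, and the mouse liver expresses many of them. The genes described here are those whose array probe maps to a mouse symbol that starts with Cyp and a digit, leaving out Cyp7a1, Cyp7b1, Cyp8b1, Cyp27a1, Cyp51 and all Cyp4a genes, which act mainly in bile acid, sterol and fatty acid metabolism. They were 85 of the 21609 symbols named on the array, read by 102 probes. Of the 85 genes, 63 were measured, which required a signal well above background from the 2 arrays of some group, and 57 of them were above background on all 12 arrays. Of the 63 genes, 60 passed this filter on both diets and 3 (Cyp1b1, Cyp2b9 and Cyp2b13) through CDAHFD arrays alone, where they were high. The 22 genes not measured are named beside their subfamilies, and 34 further P450 symbols of the reference table, 5 of them protein-coding (Cyp2a5, Cyp2c40, Cyp2c69, Cyp2j12 and Cyp3a41a), had no probe that could be named.

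P450 enzymes receive electrons from a reductase or from ferredoxin and insert 1 atom of oxygen into drugs, pollutants, steroids, retinoids, vitamin D and polyunsaturated fatty acids. Most drug-metabolising members sit in the endoplasmic reticulum of hepatocytes, many of them around the central vein, and nuclear receptors such as the xenobiotic receptors PXR and CAR, the aryl hydrocarbon receptor and HNF4A control their transcription. In rodents the pattern of growth hormone release also sets a sex bias on many of them, and inflammation is known to lower several.

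Liver RNA came from male C57BL/6NJcl mice, a wild-type inbred substrain, on an ordinary CE-2 chow (control) or on CDAHFD, a choline-deficient, amino acid-defined, high-fat diet with 60 kcal% fat and 0.1% methionine used to induce steatohepatitis. Tissue was collected after 1, 2 or 6 weeks of diet, when the mice were 7, 8 and 12 weeks old. There were 2 one-colour arrays per group (n = 2 throughout), 12 in all, which limits the precision. Whether replicates were separate mice is not stated in the labels, so p-values cover the spread between arrays alone, and that spread may be technical. The chow differs from CDAHFD in many components besides choline, methionine and fat.

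Levels below are log2 processed signals minus the 75th percentile of the array, compared only within a probe. Differences are CDAHFD minus control on the log2 scale, relative to the median difference of all 13898 genes tested, which was 0.13, 0.056 and 0.038 at 1, 2 and 6 weeks, with the standard error (SE) of the fit. A gene was called lower or higher where its adjusted p was under 0.05 in limma, which tested each difference as fitted, before that median was subtracted. Between 40.4 and 44.4% of probes were well above background on control arrays and between 45.4 and 49.7% on CDAHFD arrays. The difference between replicates had its largest SD in the 1-week controls (0.85 log2, elsewhere 0.29 to 0.49), and replicate 1 of that group had dim blocks that held 5 P450 probes, 2 of them used here for measured genes (Cyp2c29 and Cyp2c38). On CDAHFD at 6 weeks replicate 1 was above replicate 2 in 47 of the 63 genes, by a median of 0.37. In whole liver, fewer cells of a type and less RNA per cell cannot be told apart.

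Most measured P450 genes were lower on CDAHFD at every week. At 1 week 41 of the 63 measured genes fell and 6 rose, where 15.1% of all genes fell and 25.8% rose. At 2 weeks 44 fell and 6 rose, against 14.7% and 23% of all genes. At 6 weeks the counts were 43 and 6, against 16% and 24.5%. Cyp1b1 is among the genes that rose at each week, Cyp2b9 at 2 and 6 weeks and Cyp2b13 at 6 weeks, and these 3 entered through the group in which they were high. The median difference of the 63 genes was -1.0, -1.01 and -1.13 at the 3 weeks. Among the 63 genes, 37 fell at all 3 weeks, 4 rose at all 3 (Cyp1b1, Cyp39a1, Cyp4f16 and Cyp4f18), and 0 were called in both directions. The share of all genes with such calls is not given here, so these counts only describe the P450 genes. Without CDAHFD replicate 1 at 1 week, 3 genes rose at that week in place of 6. Another 15 genes were called at 1 or 2 of the weeks, and 7 at none (Cyp2a4, Cyp2b10, Cyp2j6, Cyp2s1, Cyp2t4, Cyp20a1 and Cyp26b1).

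**Figure D1:**
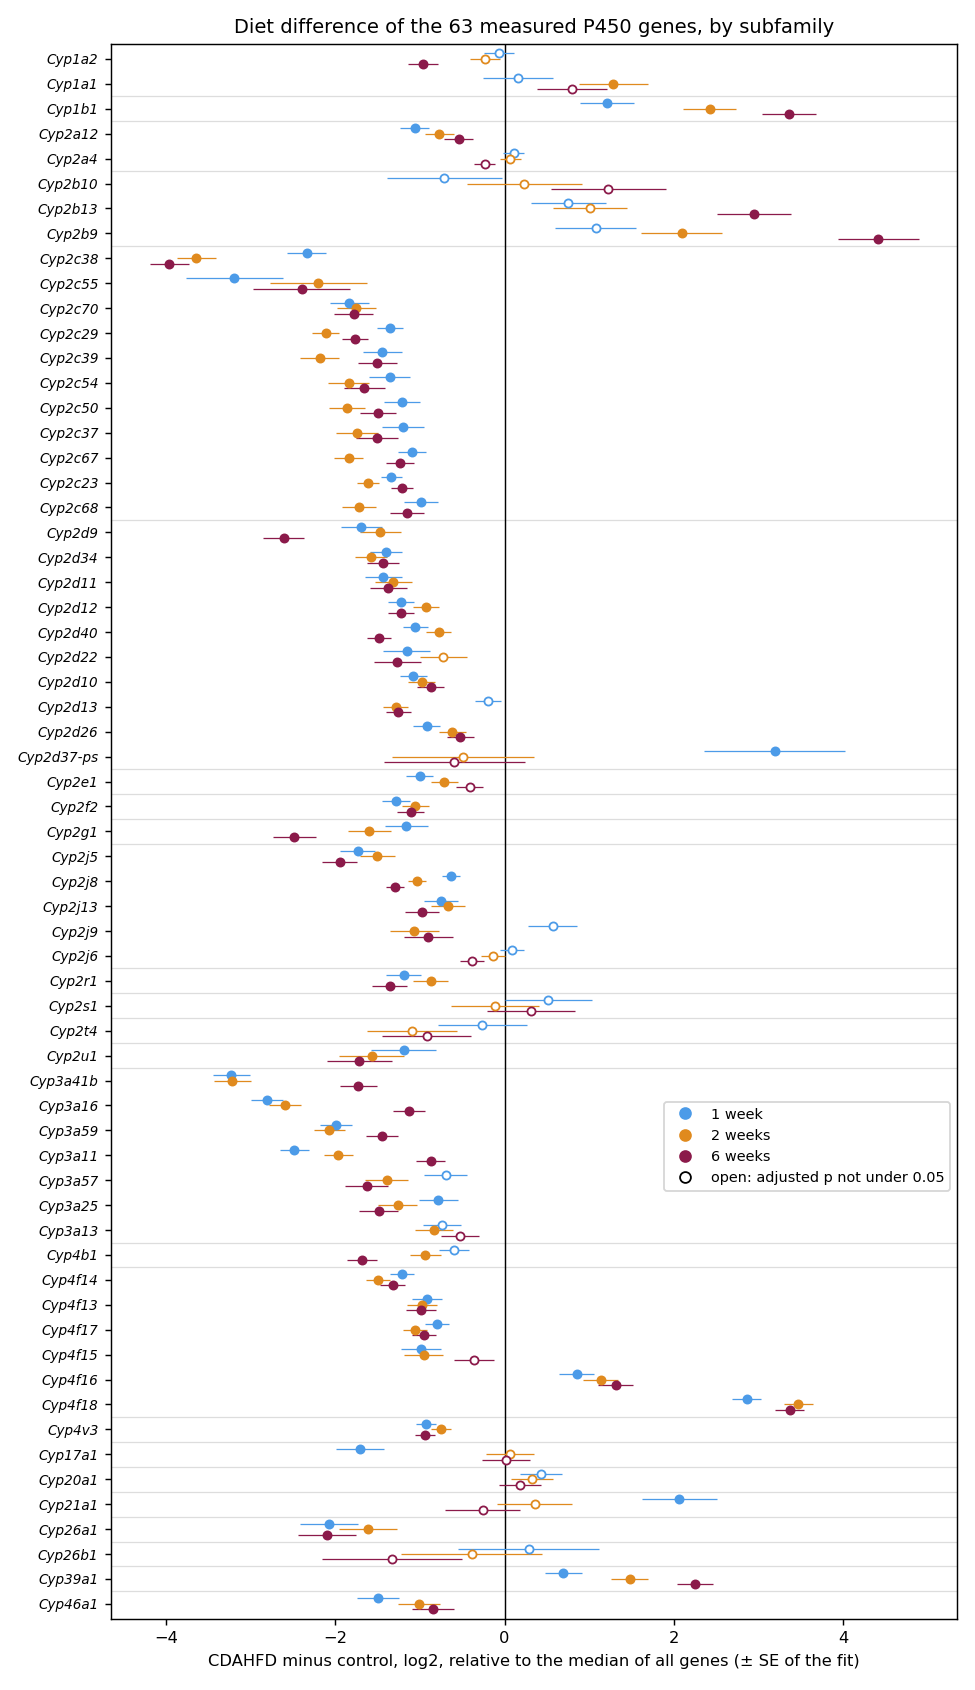
Diet difference of the 63 measured P450 genes at 1, 2 and 6 weeks, grouped by subfamily (rows); the x axis is CDAHFD minus control on the log2 scale relative to the median of all genes, points are fitted differences with bars of 1 SE, n = 2 arrays per group, and open points did not pass. All 11 Cyp2c genes and most Cyp2d and Cyp3a genes lie left of 0 at each week, while Cyp4f18, Cyp1b1, Cyp39a1 and, at 6 weeks, Cyp2b9 and Cyp2b13 lie far to the right.

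The balance over all genes depended on the scaling between arrays more than the P450 counts did. With arrays centred on their median, 6.7, 7.6 and 9.4% of all genes fell and 25.9, 21.5 and 21.4% rose at the 3 weeks, against 34, 42 and 43 P450 genes that fell and 9, 6 and 6 that rose. With the percentile taken over all probes, 29.3, 27.2 and 30.5% of all genes fell and 16.5, 17.6 and 18.7% rose, against 44, 45 and 47 P450 genes that fell and 5, 6 and 6 that rose. These scalings moved the median of all genes at 1 week by 0.18 and -0.28. Both subtract a constant from each array, so differences relative to that median hardly move with them. With quantile normalization the P450 median was -0.61, -0.95 and -0.98 at the 3 weeks, and with normexp background correction -0.64, -0.73 and -0.95. In the main fit it was -1.0, -1.01 and -1.13, so the size of the fall depended on these settings.

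Bright probes fell more often than dim ones in these data, and many P450 genes are bright. Among the brightest 2780 of the 13898 genes the median difference was -0.35, -0.27 and -0.24 at 1, 2 and 6 weeks, and 37.2, 34.5 and 31.8% of genes fell. The 33 P450 genes among them had medians of -1.16, -1.32 and -1.23, and 28, 29 and 28 of them fell. In the dimmest class of the same size, the medians of its 6 P450 genes were 0.46, 1.15 and 1.87. These genes include Cyp1b1, Cyp2b9 and Cyp2b13, which entered only through CDAHFD arrays, where they were high. In the classes between, which held 6 to 11 P450 genes each, P450 medians ranged from -0.98 to -0.33 over the 3 weeks. Hepatocyte marker levels also differed by diet, from fewer cells or less RNA per cell. Of 10 hepatocyte markers, 9, 6 and 3 fell at 1, 2 and 6 weeks and 0 rose. Of all genes, 15.1, 14.7 and 16% fell and 25.8, 23 and 24.5% rose. The marker medians were -0.90, -0.59 and -0.38. The log2 of the summed signal of those markers ranged from 8.33 to 9.17 on control arrays and from 7.63 to 8.29 on CDAHFD arrays, without overlap. In such a sum the brightest markers weigh most. All 10 were measured on both diets. By 6 weeks the hepatocyte marker median had come nearer to 0, while the P450 median was at -1.13. The part of cellular makeup in the P450 result was not tested.

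Among subfamilies with more than 1 measured gene, Cyp3a had the lowest median at 1 week. Its enzymes oxidise a large share of drugs and steroids, Cyp3a11 is the main inducible form of adult liver, and Cyp3a16 and Cyp3a41b are known as forms of young or female mice. Of 7 measured Cyp3a genes, 5, 7 and 6 fell at 1, 2 and 6 weeks and 0 rose, with medians of -1.99, -1.97 and -1.45. Cyp3a44 was not measured.

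Cyp3a11 stood at 5.52 and 5.40 at 1 week, 5.23 and 5.10 at 2 weeks and 5.01 and 4.80 at 6 weeks on the control diet, and at 3.04 and 3.17, 3.48 and 3.03, and 4.26 and 3.88 on CDAHFD. Cyp3a16 stood at 2.21 and 2.23 at 1 week, 2.24 and 1.92 at 2 weeks and 1.95 and 1.74 at 6 weeks on the control diet, and at -0.46 and -0.46, -0.25 and -0.67, and 1.03 and 0.49 on CDAHFD. Cyp3a41b stood at -0.042 and 0.17 at 1 week, 0.08 and -0.30 at 2 weeks and -0.36 and -0.64 at 6 weeks on the control diet, and at -3.27 and -2.81, -3.16 and -3.38, and -1.93 and -2.45 on CDAHFD. In all 3 genes every CDAHFD array lay below both controls of its week, but the 6-week CDAHFD arrays stood above those of 1 and 2 weeks. Cyp3a11 fell by 5.59-, 3.9- and 1.83-fold (adjusted p = 1.0e-05, 1.7e-05 and 0.00292). Its log2 differences were -2.48, -1.97 and -0.87 (SE 0.17), against -2.81, -2.59 and -1.13 (SE 0.19) for Cyp3a16 and -3.23, -3.22 and -1.73 (SE 0.22) for Cyp3a41b. The diet difference shrank between 1 and 6 weeks, by test, for Cyp3a11 (1.54 ± 0.24, adjusted p = 0.012), Cyp3a16 (1.61 ± 0.27, adjusted p = 0.0151) and Cyp3a41b (1.44 ± 0.31, adjusted p = 0.0317). For Cyp3a11 this held in each fit that left out an array (1.33 to 1.75). The change of Cyp3a16 was lost without CDAHFD replicate 1 or 2 at 1 week (1.60 and 1.63) or control replicate 2 at 6 weeks (1.49), and that of Cyp3a41b was called in 4 of 12 such fits (1.16 to 1.71).

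For the remaining Cyp3a genes no change between 1 and 6 weeks passed. Cyp3a25, a constitutive liver form, stood at 2.38 and 2.30 at 1 week, 3.04 and 2.98 at 2 weeks and 3.50 and 3.09 at 6 weeks on the control diet, and at 1.65 and 1.72, 1.77 and 1.83, and 2.28 and 1.42 on CDAHFD. Controls and CDAHFD arrays of the same week did not overlap. The difference was -0.78 ± 0.23 at 1 week and -1.49 ± 0.23 at 6 weeks, a change that did not pass (-0.77 ± 0.33, adjusted p = 0.179). The 1-week call of Cyp3a25 was made in 4 of 12 fits that left out an array (-0.85 to -0.72). Cyp3a57 was at -0.69, -1.39 and -1.63 (SE 0.25) and Cyp3a59 at -1.99, -2.07 and -1.45 (SE 0.19), and both passed at 2 and 6 weeks, Cyp3a59 also at 1 week. Another probe of Cyp3a59 read 0.89, -1.59 and -2.12, and no call of Cyp3a59 remained with the mean of its probes. Cyp3a13, which lies apart from the main cluster, stood at 0.75 and 0.77 at 1 week, 0.88 and 0.87 at 2 weeks and 0.89 and 0.68 at 6 weeks on the control diet, and at 0.093 and 0.21, 0.096 and 0.11, and 0.75 and -0.15 on CDAHFD. The arrays overlapped at 6 weeks. Its fall passed at 2 weeks alone (-0.83 ± 0.22, adjusted p = 0.0207) and was lost with the mean of its probes (-0.64) or without any 1 of the 4 arrays of that week (-0.85 to -0.82). Cyp3a genes are close paralogs, so a probe may read more than 1 of them. Another Cyp3a11 probe read -2.55, -2.84 and -1.55.

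**Figure D2:**
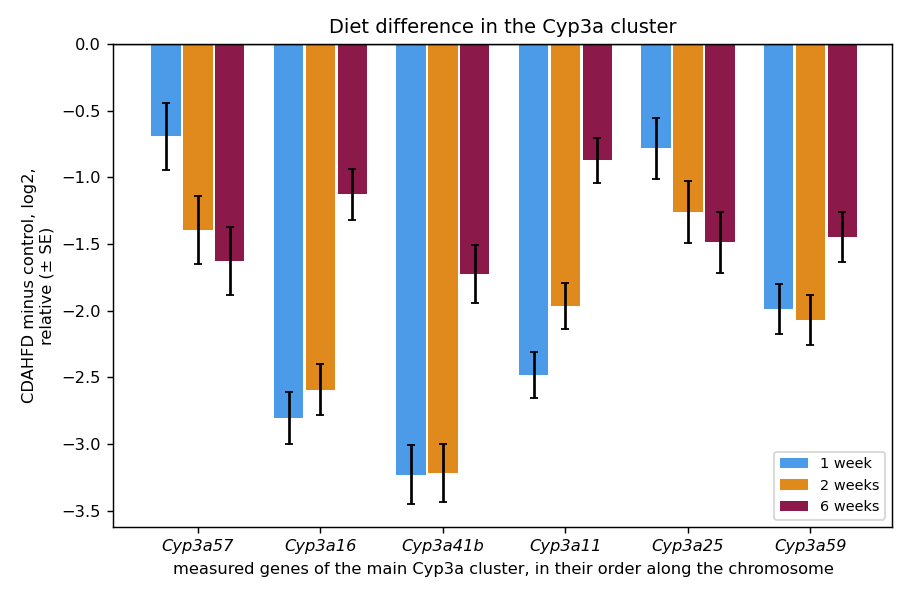
Diet difference of the 6 measured genes of the main Cyp3a cluster, in their order along chromosome 5; bars are CDAHFD minus control on the log2 scale relative to the median of all genes at 1, 2 and 6 weeks, error bars are 1 SE of the fit, n = 2 arrays per group. Bars of Cyp3a16, Cyp3a41b and Cyp3a11 shorten at 6 weeks, to between -1.73 and -0.87. The bar of Cyp3a59 also shortens, from -1.99 at 1 week to -1.45 at 6 weeks, by a change that did not pass. Those of Cyp3a57 and Cyp3a25 are longer at 6 weeks than at 1 week, by changes that did not pass.

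The 3 Cyp3a genes whose loss shrank by test share their upstream sequence more closely with each other than with the rest of the cluster. For that reason 6 promoters are printed here. Each is the 250 bases before the RefSeq transcription start on GRCm38.p6, read 5′ to 3′ on the strand of the gene, with any match to CAAAGTCCA, a letter string typical of HNF4A sites, in capitals. Their positions are chr5:145879855-145880104, minus strand (Cyp3a11), chr5:145469724-145469973, minus strand (Cyp3a16), chr5:145584731-145584980, minus strand (Cyp3a41b), chr5:146009619-146009868, minus strand (Cyp3a25, the first of 2 entries), chr5:145345019-145345268, plus strand (Cyp3a57) and chr5:146079008-146079257, plus strand (Cyp3a59).
Cyp3a11: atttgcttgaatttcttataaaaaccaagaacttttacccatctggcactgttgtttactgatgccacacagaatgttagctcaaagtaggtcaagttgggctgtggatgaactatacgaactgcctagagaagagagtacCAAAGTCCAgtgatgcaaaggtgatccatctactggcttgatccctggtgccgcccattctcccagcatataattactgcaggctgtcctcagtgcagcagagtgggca
Cyp3a16: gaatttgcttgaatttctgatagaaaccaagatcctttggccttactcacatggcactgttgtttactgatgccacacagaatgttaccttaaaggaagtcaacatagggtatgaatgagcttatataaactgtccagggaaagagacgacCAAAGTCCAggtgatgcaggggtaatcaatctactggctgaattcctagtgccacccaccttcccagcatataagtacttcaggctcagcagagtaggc
Cyp3a41b: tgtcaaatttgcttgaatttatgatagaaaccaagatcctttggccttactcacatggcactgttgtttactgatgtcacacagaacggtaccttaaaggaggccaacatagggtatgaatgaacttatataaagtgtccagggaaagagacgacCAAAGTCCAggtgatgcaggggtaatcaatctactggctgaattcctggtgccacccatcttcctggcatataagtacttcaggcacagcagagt
Cyp3a25: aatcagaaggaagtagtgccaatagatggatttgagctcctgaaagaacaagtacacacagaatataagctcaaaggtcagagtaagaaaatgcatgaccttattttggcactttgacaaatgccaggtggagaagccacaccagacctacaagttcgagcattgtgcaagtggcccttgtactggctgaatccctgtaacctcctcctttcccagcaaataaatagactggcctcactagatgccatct
Cyp3a57: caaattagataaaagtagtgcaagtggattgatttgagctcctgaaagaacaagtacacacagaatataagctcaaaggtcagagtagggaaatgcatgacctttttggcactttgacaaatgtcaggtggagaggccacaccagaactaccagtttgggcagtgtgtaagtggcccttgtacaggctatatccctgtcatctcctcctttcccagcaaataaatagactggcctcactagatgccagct
Cyp3a59: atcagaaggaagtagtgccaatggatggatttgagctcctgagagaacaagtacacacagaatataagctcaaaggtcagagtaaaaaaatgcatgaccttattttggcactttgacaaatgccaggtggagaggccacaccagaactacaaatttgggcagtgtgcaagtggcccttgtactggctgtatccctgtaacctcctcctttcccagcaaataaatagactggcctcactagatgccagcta
Cyp3a11, Cyp3a16 and Cyp3a41b held CAAAGTCCA at 109, 99 and 95 bases before the start, and the 3 sequences were 72.1 to 91.3% identical in global alignments. Cyp3a25, Cyp3a57 and Cyp3a59 had no match to CAAAGTCCA in this window, were 88.9 to 94.8% identical to each other and 49.5 to 53.6% identical to the first 3. The looser string CAAAGNNCA occurred in all 6 promoters. The fitted loss of Cyp3a59, which had no match to CAAAGTCCA, was also smaller at 6 weeks than at 1 week, by a change that did not pass. The grouping by sequence was noticed after the values were seen, and a match of letters is a description, not a binding site.

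Over the whole family, 50 of the 63 measured genes had a promoter entry. CAAAGTCCA, searched on both strands, occurred in 6 of them (Cyp2c67, Cyp2c68, Cyp2c70 and the 3 Cyp3a genes above) and in 0.384% of 32851 promoters of all genes. In Cyp2c67, Cyp2c68 and Cyp2c70 the loss did not shrink: their changes between 1 and 6 weeks were -0.20 ± 0.24, -0.23 ± 0.29 and -0.016 ± 0.33. None of these changes passed. The looser string CAAAGNNCA, which includes the first, occurred in 19 of the 50 (38.0%) and in 5.49% of all promoters. Of these 19 genes, 17, 19 and 19 fell at 1, 2 and 6 weeks, with medians of -1.20, -1.62 and -1.48, and of the 31 genes without it 15, 17 and 15 fell, with medians of -0.71, -0.75 and -0.90. TATAAA occurred in 20 genes (40.0%) and in 12.4% of all promoters. Of these 20 genes 16 fell at each week, with medians of -1.22, -1.39 and -1.28, and of the 30 without it 16, 20 and 18 fell, with medians of -0.74, -0.97 and -0.95. TTGCNNAA, a C/EBP core, occurred in 11 (22%) and in 9.56% of all promoters. Of these 11 genes 5, 6 and 6 fell, with medians of -0.63, -1.04 and -0.90, and of the 39 without it 27, 30 and 28 fell, with medians of -1.05, -0.98 and -1.11. TTCNNNGAA, a STAT5 core, occurred in 2 (4.0%) and 7.02%, and TNGCGTG, the core of aryl hydrocarbon receptor sites, in 1 (2.0%) and 4.1%. Paralogs share promoter sequence by descent, so these genes are not independent of each other.

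All 11 measured Cyp2c genes fell at every week, with medians of -1.35, -1.84 and -1.51 and ranges of -3.19 to -0.99, -3.64 to -1.61 and -3.96 to -1.15. Cyp2c enzymes epoxidise and hydroxylate arachidonic acid and metabolise drugs and retinoids. Cyp2c65 and Cyp2c66, known from the intestine, were not measured.

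Cyp2c29, a pericentral epoxygenase, stood at 3.58 and 3.97 at 1 week, 3.84 and 3.91 at 2 weeks and 3.57 and 3.75 at 6 weeks on the control diet, and at 2.50 and 2.59, 1.88 and 1.76, and 2.12 and 1.75 on CDAHFD. Cyp2c37, which hydroxylates arachidonic acid, stood at 2.98 and 3.20 at 1 week, 3.12 and 3.09 at 2 weeks and 3.09 and 3.03 at 6 weeks on the control diet, and at 2.02 and 2.01, 1.61 and 1.22, and 2.06 and 1.13 on CDAHFD. Cyp2c39, a retinoic acid hydroxylase, stood at 0.30 and 0.80 at 1 week, 0.43 and 0.69 at 2 weeks and 0.085 and 0.094 at 6 weeks on the control diet, and at -0.82 and -0.72, -1.51 and -1.63, and -1.0 and -1.75 on CDAHFD. In these genes every CDAHFD array lay below every control array. Cyp2c29 fell by 2.56-, 4.33- and 3.4-fold (-1.35, -2.11 and -1.77, SE 0.16 on the log2 scale, adjusted p = 2.2e-04, 6.8e-06 and 1.5e-05). The 1-week value of Cyp2c29, whose probe lies in a dim block of control replicate 1, was -1.34 with those spots masked. Cyp2c37 differed by -1.20, -1.74 and -1.51 (SE 0.25) and Cyp2c39 by -1.45, -2.18 and -1.50 (SE 0.23).

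Cyp2c70, which makes the muricholic acids of rodent bile, stood at 5.60 and 5.34 at 1 week, 5.25 and 5.13 at 2 weeks and 4.96 and 5.23 at 6 weeks on the control diet, and at 3.80 and 3.74, 3.53 and 3.47, and 2.91 and 3.79 on CDAHFD. Every CDAHFD array lay below every control array, though the 6-week CDAHFD replicates were far apart. Its difference was -1.83, -1.75 and -1.78 (SE 0.23, adjusted p = 3.8e-04, 3.3e-04 and 2.3e-04). Cyp2c38, related to Cyp2c39, stood at 2.92 and 3.50 at 1 week, 3.55 and 3.78 at 2 weeks and 3.88 and 3.76 at 6 weeks on the control diet, and at 0.88 and 1.11, 0.26 and -0.10, and 0.19 and -0.39 on CDAHFD. Its used probe had the largest fall among the 63 genes at 2 and 6 weeks, -2.34, -3.64 and -3.96 (SE 0.23), and the change from 1 to 6 weeks passed (-1.69 ± 0.33, adjusted p = 0.0224). The second probe of Cyp2c38 read 0.73, -1.05 and 0.19, so the size of the fall rests on the brighter probe, which may also read its paralogs. The change was lost without CDAHFD replicate 1 or 2 at 1 week (-1.82 and -1.56) or control replicate 1 or 2 at 6 weeks (-1.62 and -1.76), and with median centring and normexp. With the mean of both probes the 1-week call and the change were lost (-0.81 and -1.14).

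Cyp2c55, which hydroxylates arachidonic acid and is known as inducible, stood at -3.04 and -2.62 at 1 week, -2.75 and -2.50 at 2 weeks and -2.49 and -2.37 at 6 weeks on the control diet, and at -6.0 and -5.79, -4.95 and -4.58, and -5.88 and -3.69 on CDAHFD. Its differences were -3.19, -2.20 and -2.40 (SE 0.57), with the 6-week CDAHFD replicates further apart than those of any other P450 gene in that group. The 6-week value was -1.33 without CDAHFD replicate 1 and -3.48 without CDAHFD replicate 2 of that week, and its call was lost without control replicate 2 at 6 weeks (-2.34, adjusted p = 0.0563). The 2-week call was lost without any 1 of the arrays of that week (-2.39 to -2.02). The epoxygenase Cyp2c23 (-1.34, -1.61 and -1.21, SE 0.13), Cyp2c50 (-1.21, -1.86 and -1.50, SE 0.21) and Cyp2c54 (-1.36, -1.84 and -1.66, SE 0.24) fell at each week. Cyp2c67 and Cyp2c68 were at -1.09 and -0.99 at 1 week and at -1.84 and -1.71 at 2 weeks. With quantile normalization their 1-week calls were lost (-0.53 and -0.47), that of Cyp2c68 also without control replicate 2 (-0.75).

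Of 10 measured Cyp2d genes, relatives of the human drug-metabolising CYP2D6, 8, 8 and 9 fell, with medians of -1.12, -0.95 and -1.26, and 1 rose, at 1 week. Cyp2d9, a testosterone hydroxylase of male liver, stood at 4.14 and 3.92 at 1 week, 3.14 and 3.53 at 2 weeks and 3.74 and 3.69 at 6 weeks on the control diet, and at 2.30 and 2.63, 1.60 and 2.26, and 1.39 and 0.90 on CDAHFD. Cyp2d10 stood at 5.63 and 5.43 at 1 week, 5.25 and 5.0 at 2 weeks and 4.97 and 4.84 at 6 weeks on the control diet, and at 4.38 and 4.78, 4.29 and 4.12, and 4.19 and 3.95 on CDAHFD. Cyp2d22 stood at 1.62 and 1.48 at 1 week, 0.68 and 1.34 at 2 weeks and 1.35 and 1.52 at 6 weeks on the control diet, and at 0.57 and 0.48, 0.15 and 0.54, and 0.62 and -0.20 on CDAHFD. In these genes the diets did not overlap at any week. Cyp2d9 fell by 3.23-, 2.76- and 6.11-fold (-1.69, -1.47 and -2.61, SE 0.24 on the log2 scale, adjusted p = 7.5e-04, 0.00125 and 2.3e-05), the steepest 6-week fall of the subfamily. Between 1 and 6 weeks its change was -0.98 ± 0.34 and did not pass (adjusted p = 0.11). Cyp2d10 was at -1.08, -0.98 and -0.87 (SE 0.16) and passed at each week. Cyp2d22 was at -1.16, -0.72 and -1.27 (SE 0.28) and did not pass at 2 weeks. Its 1-week call was lost without control replicate 1 (-1.09) or CDAHFD replicate 1 or 2 (-1.17 and -1.15), and its 6-week value was -1.71 without CDAHFD replicate 1 and -0.84 without CDAHFD replicate 2 of that week.

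Cyp2d13 changed late. The gene stood at -1.77 and -2.05 at 1 week, -1.28 and -1.22 at 2 weeks and -1.22 and -1.48 at 6 weeks on the control diet, and at -2.03 and -1.93, -2.40 and -2.57, and -2.42 and -2.71 on CDAHFD. Diets overlapped at 1 week and were apart afterwards, when controls were higher and CDAHFD arrays lower than at 1 week. Its differences were -0.19, -1.29 and -1.25 (SE 0.15), and the change between 1 and 6 weeks passed (-1.12 ± 0.22, adjusted p = 0.0199), though not against the controls of 2 and 6 weeks (-0.53) or without control replicate 1 at 6 weeks (-0.98) or CDAHFD replicate 1 or 2 at 1 week (-1.20 and -1.05).

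The pseudogene Cyp2d37-ps was the Cyp2d member that rose, at 1 week. It stood at -2.67 and 0.27 at 1 week, 2.14 and 2.09 at 2 weeks and 2.09 and 1.56 at 6 weeks on the control diet, and at 2.06 and 2.18, 1.77 and 1.59, and 1.32 and 1.23 on CDAHFD. Its 1-week controls were 2.94 apart and below the controls of both later weeks, while the CDAHFD arrays lay between 1.23 and 2.18. The 1-week difference was 3.19 ± 0.84 (adjusted p = 0.0204), and 0.087 against the controls of 2 and 6 weeks. The call was lost without CDAHFD replicate 1 or 2 at 1 week (3.28 and 3.10), and the value was 1.72 without control replicate 1 and 4.68 without control replicate 2. Cyp2d26 fell at each week (-0.92, -0.62 and -0.52, SE 0.16), but was at 0.035 and 0.056 at 1 and 2 weeks with quantile normalization. Its call was also lost at 2 weeks without control replicate 1 (-0.51) or CDAHFD replicate 2 (-0.53), and at 6 weeks without control replicate 1 (-0.40) or CDAHFD replicate 2 (-0.33). Cyp2d11, Cyp2d12, Cyp2d34 and Cyp2d40 fell at each week, between -1.58 and -0.78. The 1-week call of Cyp2d34 was lost against the controls of 2 and 6 weeks (-0.26), and those of Cyp2d40 at 1 and 2 weeks with quantile normalization (-0.50 and -0.38). Cyp2d genes too are close paralogs that a probe may not tell apart.

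Among genes known from a zone of the liver lobule, 6 of the 7 measured pericentral P450 genes fell at each week, with medians of -1.21, -1.84 and -1.50, the exception being Cyp1a2 at 1 and 2 weeks and Cyp2e1 at 6 weeks. Cyp2e1, which oxidises ethanol and acetaminophen, stood at 6.48 and 6.15 at 1 week, 6.09 and 5.79 at 2 weeks and 5.76 and 5.58 at 6 weeks on the control diet, and at 5.31 and 5.57, 5.32 and 5.25, and 5.20 and 5.39 on CDAHFD. Cyp1a2, which oxidises caffeine and aromatic amines, stood at 1.15 and 1.21 at 1 week, 1.12 and 1.51 at 2 weeks and 1.14 and 1.59 at 6 weeks on the control diet, and at 1.35 and 1.13, 0.99 and 1.28, and 0.40 and 0.48 on CDAHFD. Diets were apart for Cyp2e1 at every week, and for Cyp1a2 at 6 weeks only. The Cyp2e1 difference was -1.0, -0.71 and -0.41 (SE 0.16), with adjusted p = 0.00163, 0.00804 and 0.0823, and the controls came down over time while the CDAHFD arrays stayed between 5.20 and 5.57. A second Cyp2e1 probe read -0.66, -0.77 and -0.75. Quantile normalization ended its 1- and 2-week calls (-0.13 and -0.053), and the 2-week call was also lost without control replicate 1 (-0.55) or CDAHFD replicate 2 (-0.68) of that week. Cyp1a2 was at -0.066, -0.23 and -0.96 (SE 0.18) and fell at 6 weeks alone (adjusted p = 0.00191). The change of Cyp1a2 between 1 and 6 weeks passed (-0.96 ± 0.25, adjusted p = 0.0484), but in 2 of 12 fits that left out an array (-1.17 to -0.75).

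Cyp2f2, a periportal enzyme that activates naphthalene, stood at 5.85 and 5.53 at 1 week, 5.30 and 5.14 at 2 weeks and 5.02 and 4.83 at 6 weeks on the control diet, and at 4.43 and 4.65, 4.19 and 4.26, and 4.05 and 3.66 on CDAHFD. Controls and CDAHFD arrays did not overlap, and both came down with time. Its difference was -1.28, -1.05 and -1.11 (SE 0.16, adjusted p = 3.8e-04, 7.9e-04 and 4.4e-04). The other periportal gene considered, Cyp17a1, was called lower at 1 week alone (-1.70, 0.067 and 0.017) and is described further below. Cyp2a4, a testosterone hydroxylase, stood at 4.87 and 4.79 at 1 week, 4.80 and 5.03 at 2 weeks and 5.19 and 5.01 at 6 weeks on the control diet, and at 4.96 and 5.16, 5.0 and 5.08, and 4.95 and 4.85 on CDAHFD. Its diets overlapped at 2 weeks. Its differences, 0.11, 0.067 and -0.24 (SE 0.12), did not pass at any week, and the lowest adjusted p was 0.156. A second Cyp2a4 probe read 0.58, 0.60 and -0.023, and Cyp2a4 was called higher at 1 and 2 weeks with quantile normalization (0.77 and 0.65) or the mean of its probes, and at 1 week with median centring. The nearly identical Cyp2a5 had no named probe, so a Cyp2a4 probe may read both genes. Cyp2a12 fell at each week (-1.06, -0.77 and -0.54, SE 0.17), at 1 week not against the controls of 2 and 6 weeks (-0.39). At 2 weeks its call was lost without control replicate 1 (-0.56) or CDAHFD replicate 2 (-0.71), and at 6 weeks it was called in 7 of 12 fits that left out an array, with values from -0.77 without CDAHFD replicate 1 to -0.33 without CDAHFD replicate 2 of that week. Cyp2a22 was not measured.

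**Figure D3:**
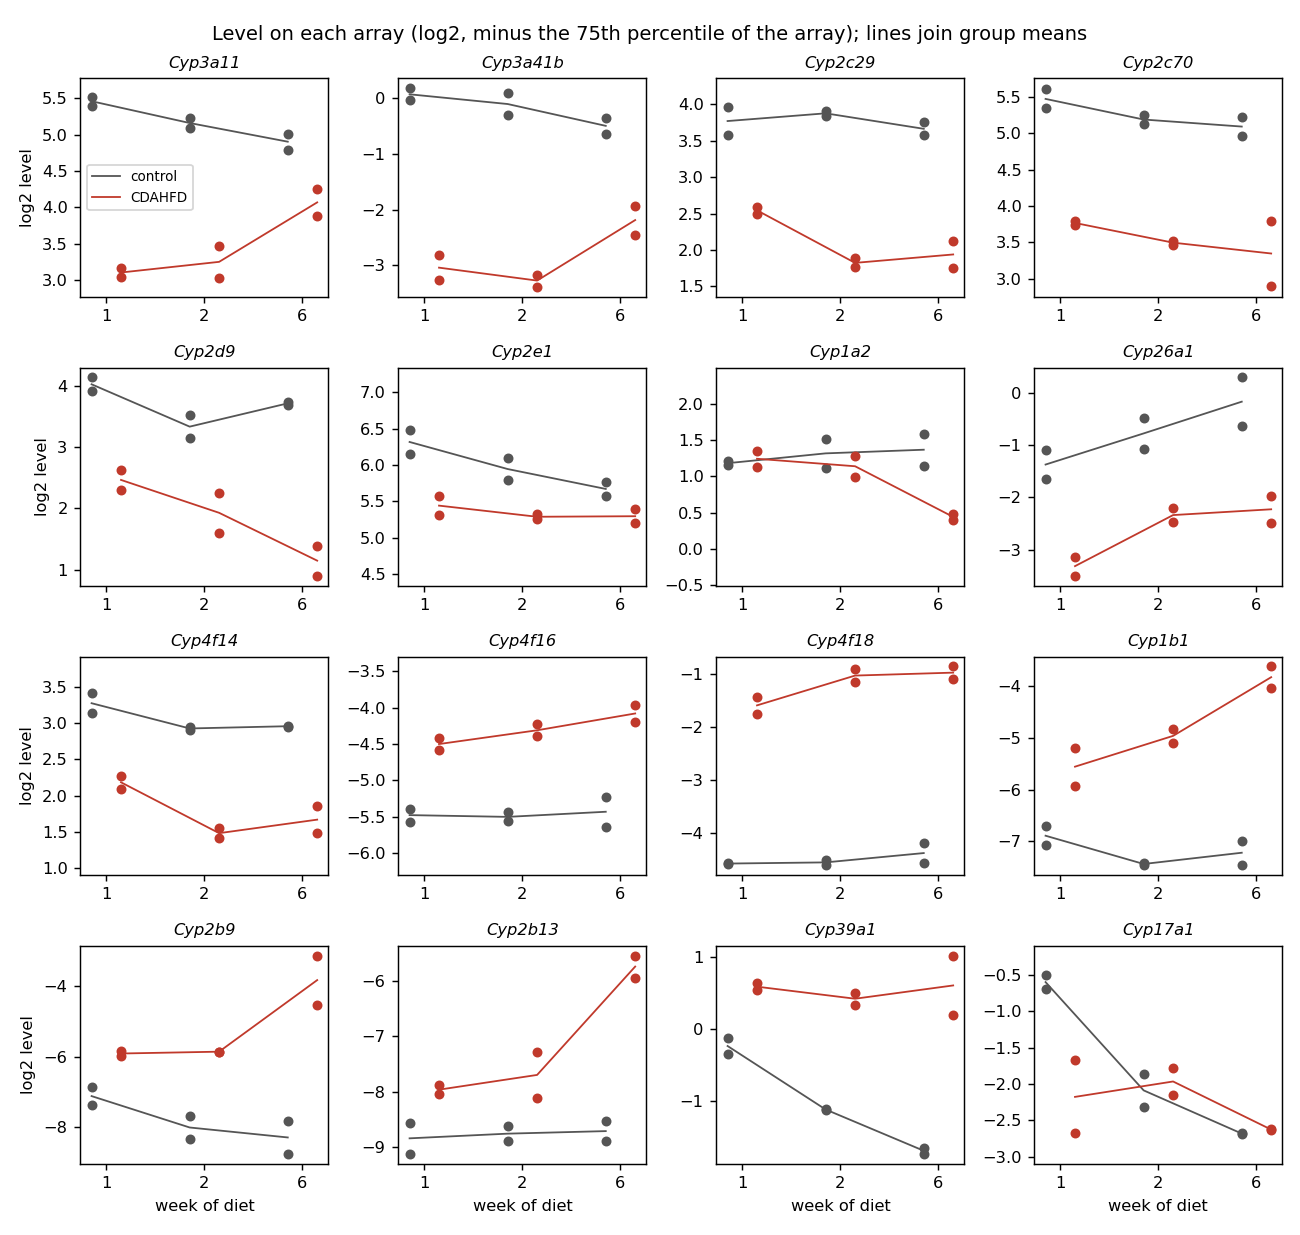
Levels of 16 P450 genes on each array by week of diet (x axis); the y axis is log2 processed signal minus the 75th percentile of the array, with its own range in each panel, grey points are control arrays, red points CDAHFD arrays, 2 per group, and lines join group means. Cyp3a11 and Cyp3a41b turn up on CDAHFD at 6 weeks, Cyp1a2 parts from its controls only then, Cyp2b9 and Cyp2b13 climb at 6 weeks, and the Cyp39a1 gap widens as the controls come down.

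Of 5 measured Cyp2j genes, epoxygenases of arachidonic acid, 3, 4 and 4 fell, with medians of -0.63, -1.04 and -0.97. Cyp2j5 stood at -1.67 and -2.05 at 1 week, -2.34 and -2.62 at 2 weeks and -2.61 and -3.10 at 6 weeks on the control diet, and at -3.61 and -3.32, -4.04 and -3.82, and -4.81 and -4.72 on CDAHFD. Cyp2j6 stood at -1.51 and -1.45 at 1 week, -1.19 and -0.97 at 2 weeks and -0.93 and -0.81 at 6 weeks on the control diet, and at -1.12 and -1.41, -1.29 and -1.04, and -1.12 and -1.30 on CDAHFD. Cyp2j8 stood at 0.77 and 0.95 at 1 week, 1.02 and 1.11 at 2 weeks and 0.98 and 1.04 at 6 weeks on the control diet, and at 0.39 and 0.32, 0.019 and 0.16, and -0.20 and -0.29 on CDAHFD. Cyp2j5 and Cyp2j8 were apart between diets at every week, and Cyp2j6 overlapped at 2 weeks. Cyp2j5 was at -1.73, -1.50 and -1.95 (SE 0.21, adjusted p = 2.3e-04, 3.5e-04 and 4.7e-05). Cyp2j6 did not pass (0.091, -0.14 and -0.38, SE 0.14, lowest adjusted p = 0.0803). A second Cyp2j6 probe read -0.15, -0.11 and -0.90. Cyp2j8 went from -0.63 ± 0.10 to -1.29 ± 0.10, and its change passed (-0.72 ± 0.15, adjusted p = 0.024), in 7 of 12 fits that left out an array (-0.84 to -0.62). Cyp2j13 was at -0.75, -0.67 and -0.97 (SE 0.20) and passed at each week, in 9 of 12 fits that left out an array at 1 week (-0.94 to -0.56) and 10 of 12 at 2 weeks (-0.84 to -0.50). Cyp2j9 was at 0.57, -1.07 and -0.90 (SE 0.29) and passed at 2 and 6 weeks, at 2 weeks in 9 of 12 such fits (-1.29 to -0.85) and at 6 weeks in 7, with values from -1.43 without CDAHFD replicate 1 to -0.39 without CDAHFD replicate 2 of that week. Cyp2j11 was not measured.

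Single members of other Cyp2 subfamilies also fell. Cyp2g1, known from the olfactory epithelium, stood at -2.73 and -2.21 at 1 week, -2.84 and -2.17 at 2 weeks and -1.95 and -1.87 at 6 weeks on the control diet, and at -3.64 and -3.36, -4.10 and -4.0, and -4.60 and -4.11 on CDAHFD. Cyp2r1, a vitamin D hydroxylase of the liver, stood at 0.52 and 0.30 at 1 week, -0.087 and -0.031 at 2 weeks and 0.10 and 0.15 at 6 weeks on the control diet, and at -0.74 and -0.56, -0.99 and -0.76, and -1.57 and -0.82 on CDAHFD. Cyp2u1, a hydroxylase of long-chain fatty acids, stood at -4.28 and -4.82 at 1 week, -4.84 and -4.87 at 2 weeks and -5.18 and -5.06 at 6 weeks on the control diet, and at -5.87 and -5.37, -6.58 and -6.16, and -7.42 and -6.17 on CDAHFD. In these genes every CDAHFD array lay below both controls of its week. Cyp2g1 was at -1.16, -1.60 and -2.49 (SE 0.25) and fell at each week (adjusted p = 0.00884, 9.3e-04 and 3.7e-05), though at 1 week not without control replicate 2 (-0.89) or CDAHFD replicate 1 (-0.99). Cyp2r1 was at -1.19, -0.87 and -1.36 (SE 0.21) and fell at each week, at 2 weeks not without CDAHFD replicate 1 (-0.76). Cyp2u1 was at -1.19, -1.57 and -1.71 (SE 0.38) and fell at each week, at 6 weeks at -2.32 without CDAHFD replicate 2 and -1.12 without CDAHFD replicate 1, and not with normexp background correction (-0.55). CDAHFD replicate 1 at 6 weeks was below background for Cyp2u1. The 1-week call of Cyp2u1 was made in 3 of 12 fits that left out an array (-1.48 to -0.91), and its 2-week call was lost without CDAHFD replicate 1 (-1.37). Cyp2s1 and Cyp2t4 did not pass, and Cyp2ab1 and Cyp2w1 were not measured.

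The Cyp4f subfamily, fatty acid and leukotriene hydroxylases, divided in direction: of 6 measured genes 4, 4 and 3 fell and 2 rose at each week. Cyp4f14, a hepatic form, stood at 3.13 and 3.41 at 1 week, 2.90 and 2.95 at 2 weeks and 2.96 and 2.95 at 6 weeks on the control diet, and at 2.09 and 2.27, 1.42 and 1.55, and 1.48 and 1.86 on CDAHFD. Cyp4f18, which inactivates leukotriene B4 in myeloid cells, stood at -4.56 and -4.58 at 1 week, -4.59 and -4.50 at 2 weeks and -4.55 and -4.19 at 6 weeks on the control diet, and at -1.42 and -1.75, -1.15 and -0.90, and -0.85 and -1.08 on CDAHFD. Cyp4f16 stood at -5.39 and -5.57 at 1 week, -5.57 and -5.44 at 2 weeks and -5.23 and -5.64 at 6 weeks on the control diet, and at -4.41 and -4.59, -4.40 and -4.23, and -3.96 and -4.20 on CDAHFD. Diets were apart in all 3 genes, with Cyp4f14 lower and the others higher on every CDAHFD array. Cyp4f14 fell by 2.32-, 2.82- and 2.5-fold (adjusted p = 2.7e-04, 3.4e-05 and 5.7e-05). Cyp4f18 rose by 7.26-, 11.1- and 10.3-fold, 2.86, 3.47 and 3.37 (SE 0.17) on the log2 scale (adjusted p = 3.6e-06, 9.2e-07 and 6.2e-07), and had the smallest adjusted p of the family at each week. Cyp4f16 rose by 0.85, 1.13 and 1.31 (SE 0.20), with calls that normexp background correction ended (0.011, 0.34 and 0.56).

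Beside the rise of Cyp4f18, 6, 8 and 8 of 10 macrophage markers rose at 1, 2 and 6 weeks and 1, 0 and 0 fell. The log2 of their summed signal was between 2.36 and 3.32 on control arrays and between 4.32 and 5.40 on CDAHFD arrays. Gpnmb was the marker below background on every control array. The part of macrophages in the Cyp4f18 level was not tested. The remaining Cyp4f genes, Cyp4f13 (-0.92, -0.97 and -0.98, SE 0.18), Cyp4f17 (-0.80, -1.06 and -0.95, SE 0.14) and Cyp4f15 (-0.99, -0.96 and -0.36, SE 0.23), fell, Cyp4f15 at 1 and 2 weeks only. Without control replicate 1 or CDAHFD replicate 1 at 1 week the 1-week call of Cyp4f15 was lost (-0.87 and -0.78), and its 2-week call was lost without either control (-0.95 and -0.96) or CDAHFD replicate 2 (-0.89). Cyp4f37, Cyp4f39, Cyp4f40 and the pseudogene Cyp4f41-ps were not measured.

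Cyp4v3 and Cyp4b1 also fell. Cyp4v3, the mouse counterpart of the fatty acid hydroxylase CYP4V2, stood at 3.50 and 3.42 at 1 week, 3.39 and 3.34 at 2 weeks and 3.41 and 3.48 at 6 weeks on the control diet, and at 2.60 and 2.71, 2.57 and 2.78, and 2.65 and 2.44 on CDAHFD. Cyp4b1, which oxidises fatty acids and furans, stood at -1.52 and -1.39 at 1 week, -1.73 and -1.13 at 2 weeks and -1.12 and -1.15 at 6 weeks on the control diet, and at -1.94 and -1.92, -2.32 and -2.29, and -2.65 and -2.92 on CDAHFD. Both genes were apart between diets at each week. Cyp4v3 was at -0.93, -0.75 and -0.94 (SE 0.12, adjusted p = 4.5e-04, 9.8e-04 and 1.5e-04). Cyp4b1 was at -0.60, -0.93 and -1.69 (SE 0.18, adjusted p = 0.0555, 0.0031 and 4.6e-05), and its change between 1 and 6 weeks passed (-1.15 ± 0.25, adjusted p = 0.0296), in 5 of 12 fits that left out an array (-1.31 to -1.0). Cyp4x1 and the pseudogene Cyp4b1-ps2 were not measured.

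A few members of the Cyp1 and Cyp2b subfamilies rose from a low level. Cyp1b1, an oestrogen hydroxylase known mainly from tissues other than liver, stood at -7.07 and -6.71 at 1 week, -7.42 and -7.45 at 2 weeks and -6.98 and -7.45 at 6 weeks on the control diet, and at -5.18 and -5.92, -4.82 and -5.10, and -3.61 and -4.03 on CDAHFD. All 6 control arrays were below background for this gene, and every CDAHFD array was above them. Cyp1b1 was at least 1.79-, 3.17- and 7.53-fold higher at the 3 weeks (adjusted p = 0.0072, 1.7e-04 and 1.7e-05, for a gene that passed the filter only where it was high). For these lower bounds the dim group was given, array by array, the lowest signal that counted as well above background, or the signal of the gene where that was higher. The fitted difference was called larger at 6 weeks than at 1 week, in 5 of 12 fits that left out an array, but its size rests on controls below background. With normexp the 1-week value was -0.30, and the 2-week call was lost (0.32). The 1-week call was also lost without CDAHFD replicate 1 (0.87). Beside it, 7 of 8 markers of stellate cells and myofibroblasts rose at each week. The log2 of their summed signal was between 2.97 and 3.35 on control arrays and between 4.04 and 4.92 on CDAHFD arrays. Timp1 was the marker of that list below background on every control array. The part of these cells in the Cyp1b1 level was not tested.

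Cyp1a1, the classical target of the aryl hydrocarbon receptor, stood at -6.17 and -6.13 at 1 week, -8.20 and -6.89 at 2 weeks and -7.93 and -8.26 at 6 weeks on the control diet, and at -5.75 and -5.98, -6.23 and -6.17, and -7.45 and -7.06 on CDAHFD. CDAHFD arrays were above the controls at each week, but at 6 weeks all 4 arrays were below background. Its rise passed at 2 weeks, where it was at least 1.31-fold (adjusted p = 0.0253). That call was lost without control replicate 1 (0.64) or CDAHFD replicate 1 or 2 of that week (1.31 and 1.25), and normexp turned the value to -0.10.

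Cyp2b9, a steroid hydroxylase predominant in female liver, stood at -6.86 and -7.37 at 1 week, -8.34 and -7.67 at 2 weeks and -7.82 and -8.75 at 6 weeks on the control diet, and at -5.98 and -5.83, -5.85 and -5.86, and -3.13 and -4.53 on CDAHFD. Cyp2b13, also predominant in females, stood at -8.57 and -9.13 at 1 week, -8.63 and -8.90 at 2 weeks and -8.54 and -8.90 at 6 weeks on the control diet, and at -7.88 and -8.05, -8.12 and -7.28, and -5.54 and -5.93 on CDAHFD. Cyp2b10, the target gene of CAR, stood at -2.31 and -0.96 at 1 week, -2.64 and -1.62 at 2 weeks and -1.01 and -2.19 at 6 weeks on the control diet, and at -2.42 and -2.01, -2.15 and -1.52, and 0.28 and -0.95 on CDAHFD. The controls of Cyp2b9 and Cyp2b13 were below background, as were the CDAHFD arrays of Cyp2b13 at 1 and 2 weeks, and their 6-week CDAHFD arrays were higher than any other array. Cyp2b9 was at least 1.7-fold higher at 2 weeks and at least 7.48-fold higher at 6 weeks (adjusted p = 0.00529 and 4.4e-05). Cyp2b13 was at least 2-fold higher at 6 weeks (adjusted p = 3.7e-04). Both genes passed the filter only through CDAHFD arrays, Cyp2b13 only through those of 6 weeks, so these calls are of groups in which the genes were admitted as high. The fitted difference of Cyp2b9 was called larger at 6 weeks than at 1 week, in 5 of 12 fits that left out an array and not with normexp (adjusted p = 0.0516), but its size rests on controls below background. Cyp2b10 overlapped between diets at 1 and 2 weeks and did not pass (-0.71, 0.24 and 1.23, SE 0.68, lowest adjusted p = 0.182). Normexp ended the 2-week call of Cyp2b9 (0.031) and the 6-week call of Cyp2b13 (0.30). Cyp2b19 and Cyp2b23 were not measured.

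Genes known for a female bias in mouse liver were called in both directions, but only genes admitted where they were high rose. Of 6 measured, 3, 2 and 2 fell and 0, 1 and 2 rose at 1, 2 and 6 weeks. Over all genes, 15.1, 14.7 and 16% fell and 25.8, 23 and 24.5% rose. Those that fell at 6 weeks were Cyp3a16 and Cyp3a41b, whose probes may also read other Cyp3a genes, and those that rose were Cyp2b9 and Cyp2b13. Both of the latter passed the filter through CDAHFD arrays alone, so their rise is no independent result. Normexp ended the 2-week call of Cyp2b9 and the 6-week call of Cyp2b13. Stat5b, the transcription factor through which growth hormone sets this bias, was at -0.67, -0.58 and -0.38 (SE 0.12) and fell at each week (adjusted p = 0.00477, 0.00599 and 0.0413), while Bcl6 did not pass (-1.73, -0.15 and -1.76, SE 0.95) and Cux2 was not measured.

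P450 genes of retinoid, vitamin D and steroid metabolism were called in both directions. Of 14 such genes 7 were measured, and 4, 3 and 3 fell and 2, 1 and 1 rose. Over all genes, 15.1, 14.7 and 16% fell and 25.8, 23 and 24.5% rose. The 1-week counts include Cyp17a1 and Cyp21a1, whose calls were lost against the controls of 2 and 6 weeks. Cyp26a1, which degrades retinoic acid, stood at -1.65 and -1.10 at 1 week, -0.48 and -1.08 at 2 weeks and -0.64 and 0.29 at 6 weeks on the control diet, and at -3.13 and -3.50, -2.47 and -2.21, and -2.49 and -1.97 on CDAHFD. Cyp26b1, with the same activity, stood at -0.80 and -2.51 at 1 week, 0.35 and -1.12 at 2 weeks and -0.59 and -0.70 at 6 weeks on the control diet, and at -1.06 and -1.42, -0.81 and -0.63, and -0.96 and -2.90 on CDAHFD. Every CDAHFD array of Cyp26a1 lay below its controls, whereas Cyp26b1 varied widely between replicates and overlapped at 1 and 2 weeks. Cyp26a1 fell by 4.2-, 3.07- and 4.28-fold (-2.07, -1.62 and -2.10, SE 0.34 on the log2 scale, adjusted p = 0.00201, 0.00626 and 0.00126), at 2 weeks not without control replicate 1 (-1.31). Cyp26b1 was at 0.28, -0.39 and -1.33 (SE 0.83) and did not pass (lowest adjusted p = 0.264). Cyp26c1, the vitamin D enzymes Cyp24a1 and Cyp27b1, aromatase (Cyp19a1) and the adrenal and gonadal enzymes Cyp11a1, Cyp11b1 and Cyp11b2 were not measured.

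Cyp39a1, an oxysterol hydroxylase, stood at -0.35 and -0.12 at 1 week, -1.12 and -1.11 at 2 weeks and -1.73 and -1.64 at 6 weeks on the control diet, and at 0.53 and 0.64, 0.50 and 0.33, and 1.02 and 0.19 on CDAHFD. Its controls were lower at each later week while the CDAHFD arrays stayed between 0.19 and 1.02, and the diets were apart throughout. The gene rose by 1.62-, 2.79- and 4.77-fold (adjusted p = 0.0124, 3.5e-04 and 2.1e-05), and its change between 1 and 6 weeks passed (1.49 ± 0.30, adjusted p = 0.0278). Its 1-week call was lost without control replicate 1 (0.58) or CDAHFD replicate 1 or 2 of that week (0.78 and 0.61). Against the controls of 2 and 6 weeks the change was lost (0.31), and it was called in 8 of 12 fits that left out an array (1.06 to 1.92). Cyp46a1, a cholesterol hydroxylase best known from brain, stood at -3.41 and -3.97 at 1 week, -4.55 and -4.63 at 2 weeks and -4.66 and -4.84 at 6 weeks on the control diet, and at -5.19 and -4.93, -5.55 and -5.55, and -5.27 and -5.86 on CDAHFD. CDAHFD arrays lay below their controls at each week. Cyp46a1 was at -1.50, -1.01 and -0.85 (SE 0.25, adjusted p = 0.00174, 0.0123 and 0.0248), and its 1-week call was lost against the controls of 2 and 6 weeks (-0.45). At 2 and 6 weeks the calls were each made in 9 of 12 fits that left out an array (-1.07 to -0.96 at 2 weeks), and the 6-week value was -1.17 without CDAHFD replicate 1 and -0.54 without CDAHFD replicate 2 of that week.

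The steroid hydroxylases Cyp17a1 and Cyp21a1 were called at 1 week alone. Cyp17a1 stood at -0.51 and -0.69 at 1 week, -1.87 and -2.31 at 2 weeks and -2.69 and -2.68 at 6 weeks on the control diet, and at -2.68 and -1.68, -1.79 and -2.14, and -2.63 and -2.62 on CDAHFD. Cyp21a1 stood at -3.47 and -4.68 at 1 week, -1.92 and -1.95 at 2 weeks and -1.11 and -2.02 at 6 weeks on the control diet, and at -1.99 and -1.77, -1.52 and -1.52, and -1.34 and -2.24 on CDAHFD. The 1-week controls stood above those of later weeks for Cyp17a1 and below them for Cyp21a1, and the CDAHFD arrays overlapped with the later controls. The change of Cyp17a1 between 1 and 6 weeks (1.66 ± 0.40, adjusted p = 0.0449) was called in 2 of 12 fits that left out an array (1.14 to 2.18) and under 3 of 12 other settings. At 1 week Cyp17a1 was lower by a log2 difference of -1.70 ± 0.28 (adjusted p = 0.00171) and Cyp21a1 rose by 2.07 ± 0.44 (adjusted p = 0.00486), and neither passed at 2 or 6 weeks. Against the controls of 2 and 6 weeks the values were 0.14 and -0.19.

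Over time, the diet difference of 12 of the 63 genes changed between 1 and 6 weeks: 7 moved up and 5 down, where 2.53% of all genes moved up and 2.74% down. Those that moved up were Cyp2b9, Cyp1b1, Cyp17a1, Cyp3a16, Cyp3a11, Cyp39a1 and Cyp3a41b, by 1.44 to 1.66 in the 5 of them measured on both diets, and those that moved down were Cyp2c38, Cyp4b1, Cyp2d13, Cyp1a2 and Cyp2j8, from -1.69 to -0.72. For Cyp3a11, Cyp3a16, Cyp3a41b and Cyp17a1 moving up meant a smaller loss, and for the other 3 a larger rise. Of the 12, Cyp3a11 was the gene called in every fit that left out an array and under every other setting tried. Counts without CDAHFD replicate 1 or 2 at 1 week were 2 and 3, and without either control of 6 weeks 2 each, and without either CDAHFD array of 2 weeks 6 each. Arrays of 6 weeks lay on another slide than those of 1 and 2 weeks, with both diets on each slide. Within the control diet 15 of the 63 genes varied over the weeks by F test, against 11.5% of all genes, and on CDAHFD 10 varied, against 3.08% of all genes. With an array left out these counts ran from 4 (without control replicate 2 at 6 weeks) to 17 on the control diet, and from 0 (without CDAHFD replicate 2 at 1 week) to 22 (without CDAHFD replicate 2 at 6 weeks) on CDAHFD. In the limma fit that gave 0, 21 of the 63 genes had an unadjusted p under 0.05. Week, age and, for 6 weeks, slide cannot be told apart in these 2 tests.

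**Figure D4:**
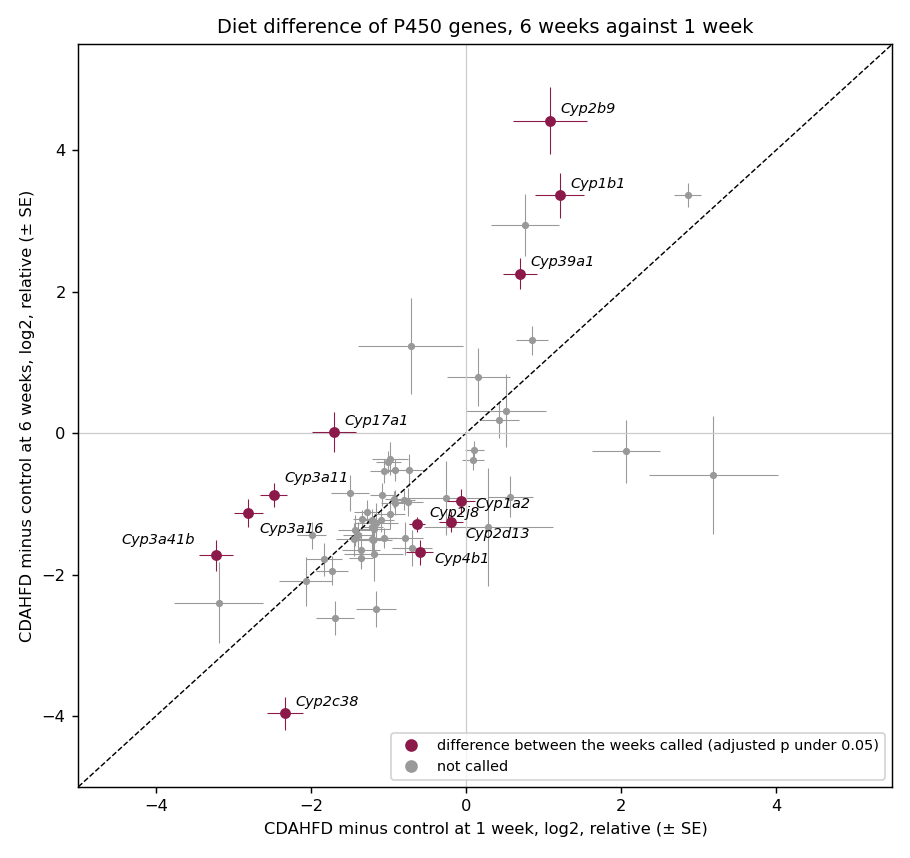
Diet difference of each measured P450 gene at 6 weeks (y axis) against that at 1 week (x axis), both CDAHFD minus control on the log2 scale after subtracting the all-gene median, with bars of 1 SE; the dashed line marks equal differences, and the 12 dark red genes changed between the weeks by test. Cyp3a11, Cyp3a16 and Cyp3a41b lie above the line with a smaller loss at 6 weeks and Cyp2c38 lies below it; the positions of Cyp2b9 and Cyp1b1 rest on controls below background.

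The genes that serve P450 enzymes moved in both directions. Of 16 genes for redox partners and haem synthesis, 6, 5 and 6 fell and 3, 2 and 1 rose at 1, 2 and 6 weeks, with medians of -0.33, -0.34 and -0.34, where 15.1, 14.7 and 16% of all genes fell and 25.8, 23 and 24.5% rose. Por, the reductase that feeds electrons to the microsomal enzymes, did not pass (-0.076, 0.31 and 0.33, SE 0.22, lowest adjusted p = 0.215). Cytochrome b5 type B, Cyb5b (-1.03, -1.17 and -1.39, SE 0.17), the b5 reductase Cyb5r3 (-0.99, -0.75 and -0.98, SE 0.11), the mitochondrial ferredoxin Fdx1 (-0.61, -0.37 and -0.61, SE 0.093) and Pgrmc1 (-0.65, -0.73 and -0.86, SE 0.11), a haem-binding partner of P450 enzymes, fell at each week. Cyb5a was at -0.97, -0.69 and -0.39 (SE 0.16) and fell at 1 and 2 weeks. Alas1, the first enzyme of haem synthesis, was called higher at 1 week (1.25 ± 0.28, adjusted p = 0.00393) and did not pass later (-0.30 and 0.74). Its control means were 2.96, 4.58 and 3.33 at 1, 2 and 6 weeks, lowest at 1 week. On CDAHFD the Alas1 means were 4.34, 4.34 and 4.11. Hmox1, which breaks down haem, rose at each week (1.87, 2.18 and 1.78, SE 0.27, adjusted p = 4.1e-04, 1.7e-04 and 5.2e-04).

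Of 19 transcriptional regulators of P450 genes 18 were measured, and 5, 5 and 6 fell and 2, 0 and 1 rose, against the same shares of all genes. Cebpa (-0.66, -0.77 and -0.90, SE 0.14) fell at each week, and Hnf4a (-0.78, -0.54 and -0.32, SE 0.11) at 1 and 2 weeks but not at 6 (adjusted p = 0.0593). PXR, Nr1i2, which activates Cyp3a11, was at -0.77, 0.88 and 1.28 (SE 0.43) and rose at 6 weeks (adjusted p = 0.041). CAR, Nr1i3 (0.48, 0.18 and -0.03, SE 0.23), and the aryl hydrocarbon receptor, Ahr (0.18, 0.66 and 0.17, SE 0.29), did not pass. The bile acid receptor Nr1h4 was called higher at 1 week (adjusted p = 0.0386) from a fitted difference of 0.34, which is 0.21 ± 0.11 after the all-gene median is subtracted, and fell at 6 weeks (-0.69 ± 0.11, adjusted p = 0.00122). Rxra, the partner with which PXR, CAR and the bile acid receptor bind DNA, was at -0.80, -0.39 and -0.77 (SE 0.19) and fell at 1 and 6 weeks.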

How the data were processed

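RNA from mouse liver was measured on 12 one-colour arrays (Cy3), 2 in each of 6 groups of diet and week. The deposited values are the intensity of each spot, background-subtracted and detrended by Agilent Feature Extraction 11.5.1.1 per the file headers; the submitters' processing notes name version 10.7. From these intensities, log2 processed signal minus the 75th percentile of each array was computed here, with the percentile taken from 20172 probes detected above background throughout. No gene spot was saturated, and 2255 outlier spot values were left out. Of 55681 probes, 28658 were named through their accession in a RefSeq table (GRCm38.p6), giving 21609 symbols. The filter on dim signals kept genes detected above background by the 2 arrays of some group, each read by its brightest such probe. The 13898 genes were fitted with limma 3.58.1 in R 4.3.3 (6 group means, eBayes with trend and robust, 6 residual degrees of freedom), and p-values were adjusted over all of them by the method of Benjamini and Hochberg, with a threshold of 0.05. The code was tested on simulated data.

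The P450 genes, gene lists and tests were chosen with earlier results of these data known, and named genes are anchors of each subfamily plus those with the largest differences or a changed one. Weeks 1 and 2 lay on 1 slide and week 6 on another. Replicate numbers were checked for pairing: deviations correlated between -0.14 and 0.22 over 15 pairs of groups, over 0.1 in 4, so no block was used. Alternatives covered scaling, background, filter, probe choice, error model, masked spots, the controls used and each array left out.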

Additional observations from a re-analysis of the deposited data

Results flagged for a closer look

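Each gene here is listed because its diet difference at 6 weeks differed from that at 1 week by limma's test of the difference itself (6 weeks minus 1 week, log2, relative to the median of all genes).

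Among genes lower on CDAHFD at 1 week, the difference moved up by 1.54 in Cyp3a11, 1.61 in Cyp3a16, 1.44 in Cyp3a41b and 1.66 in Cyp17a1. The Cyp17a1 change was called in 2 of 12 fits that left out an array. Among genes higher on CDAHFD it moved up by 1.49 in Cyp39a1. The fitted values of 3.27 in Cyp2b9 and 2.09 in Cyp1b1 rest on controls below background and give no measured size. It moved down in Cyp2c38 (-1.69), Cyp4b1 (-1.15), Cyp2d13 (-1.12), Cyp1a2 (-0.96) and Cyp2j8 (-0.72).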

How the results depend on the processing

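Of the values of single P450 genes under the alternatives, 5739 kept their side of the threshold, 233 lost their call, 108 gained one and 7 turned direction. Direction was compared only for values called in the main fit, so turns among uncalled values are not counted. Calls that held under every setting, arrays left out included, numbered 23 of 47 at 1 week, 32 of 50 at 2 weeks and 40 of 49 at 6 weeks, and 1 of 12 for the change between weeks. With the controls of 2 and 6 weeks, Cyp17a1 was at 0.14 and Cyp21a1 at -0.19 at 1 week, and the change of Cyp17a1 was -0.15. With normexp, Cyp1b1 was at -0.30 at 1 week and Cyp1a1 at -0.10 at 2 weeks. With quantile normalization, Cyp2d26 was at 0.035 and 0.056 at 1 and 2 weeks. The cause was not tested. With an added 2-fold rule 27 and 28 genes fell at 1 and 2 weeks. Those that rose numbered 3 and 2 with normexp at 1 and 2 weeks, and 3 and 3 at 2 and 6 weeks among genes above background on all 12 arrays, where fewer genes are tested. The count of changed differences was 6 with median centring. The 15 genes that varied over weeks on the control diet became 8 with median centring, 9 with quantile normalization, 8 with normexp, 9 with no filter and 9 without trend, and the 10 on CDAHFD became 6 without trend. Leaving out each array gave 35 to 44, 36 to 45 and 39 to 45 genes that fell at 1, 2 and 6 weeks, 3 to 8, 5 to 6 and 6 to 7 that rose, 2 to 15 changed differences, 4 to 17 genes over control weeks and 0 to 22 over CDAHFD weeks. With replicate number as a block, though the numbers do not pair the arrays, 42, 44 and 43 genes fell, 6 rose at each week, 13 differences changed, and 13 and 10 genes varied over control and CDAHFD weeks. Signal near background limits Cyp1a1, Cyp1b1, Cyp2b9 and Cyp2b13. At 6 weeks it also limits Cyp2u1 and Cyp2t4, each below background on 1 CDAHFD array.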
